A study of Mus musculus with 6 samples.

Results

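Mechanosensory ion channels are pores in the cell membrane that open when the membrane is stretched, poked or swollen, or that act beside such pores. The channel genes described here belong to the Piezo, TRP and TMEM63 families: Piezo1, Piezo2, Trpv3, Trpv4, Trpc1, Trpm4, Trpm7, Tmem63a and Tmem63b. They were found by their gene names and make up 9 of the 54532 genes counted. All 9 had enough reads to be tested.

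The libraries came from epidermis of the dorsal skin of 4-week-old C57BL/6 mice, males and females, for which no treatment or transgene is named. Dissociated cells were sorted into an NCAM-enriched group (3 libraries; cells selected for the surface protein NCAM, first with beads against its polysialylated form and then by flow cytometry) and a bulk skin group (3 libraries; all cells that excluded the dye DAPI, which enters dead cells). Each library held 500 sorted events of live cells and was read by Smart-seq2, which copies full-length mRNA from little input. The comparison asks how Merkel cells, the touch cells that carry NCAM, differ from whole epidermis, and NCAM also marks other cells, so the gate does not define a pure population.

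Piezo channels are large trimeric cation channels that open directly under membrane force. Piezo2 is the channel through which Merkel cells respond to light touch, and it is also used by touch neurons, while Piezo1 serves many epithelial and vascular cells. TRP channels are a broad family of cation channels, of which TRPV3 and TRPV4 respond to warmth, chemicals and osmotic change in keratinocytes. TMEM63 proteins are relatives of the plant OSCA channels and open under osmotic or mechanical stretch.

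Library totals ran from 1343190 to 4481830 counts, so that 1 read was worth 0.216 to 0.773 CPM (counts scaled to the normalised library size). NCAM-enriched library 2 was the shallowest and had the fewest genes with at least 5 counts, 11565 against 13501 to 15638 in the others. Of 11 Merkel cell markers, 10 were tested and 5 were called higher in the NCAM-enriched group, where their summed level was 1587, 1577 and 465 CPM against 181, 150 and 126 CPM in bulk skin. NCAM-enriched library 3 thus had the lowest Merkel marker sum of its group. Fibroblast markers summed to 363, 33003 and 41.7 CPM in the NCAM-enriched libraries and to 13226, 18198 and 10356 CPM in bulk skin, so that NCAM-enriched libraries 1 and 3 were low and library 2 was the highest of all. Suprabasal keratinocyte markers also moved with the sort, with 9 of 12 called higher and sums of 15442 to 39389 CPM against 1599 to 1819 CPM, while Flg was at 0 in bulk skin. Hair follicle and sebaceous markers summed to 12779, 8158 and 29196 CPM against 2986, 2769 and 3524 CPM, with Krt17 called higher and Lgr6 called lower of 10 tested. Immune and blood markers moved the other way, with 7 of 8 T and NK cell markers, 6 of 9 Langerhans and myeloid markers and 4 of 5 red blood cell markers called lower.

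Piezo2 and Tmem63b were the 2 channel genes with higher levels in every NCAM-enriched library than in any bulk skin library. Neither passed the test over all 13157 genes, at adjusted p = 0.0608 and 0.0653 (edgeR's quasi-likelihood test). None of the 9 was called higher, against a background of 1.04% of all genes, and none was called lower, against 1.55%. An unadjusted p under 0.05 was reached by 2 of the 9 and by 18.9% of all genes. The fitted log2 fold change, NCAM-enriched over bulk skin, was above 0 for 8 of the 9, as it was for 47.7% of all genes, and its median was 0.85 against -0.07 over all genes. Groups that did not overlap with the NCAM-enriched group higher were seen for 2 of 9, or 22.2%, against 11.1% of all genes, and with it lower for 0 of 9 against 19.3%. Other count models called some of the 9 higher. DESeq2 on every gene with a count called Piezo2 and Tmem63b (background 7.68%), DESeq2 restricted to the genes that edgeR tested called the same pair (background 5.06%), and limma-voom called Tmem63b alone (background 2.67%).

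**Figure D1:**
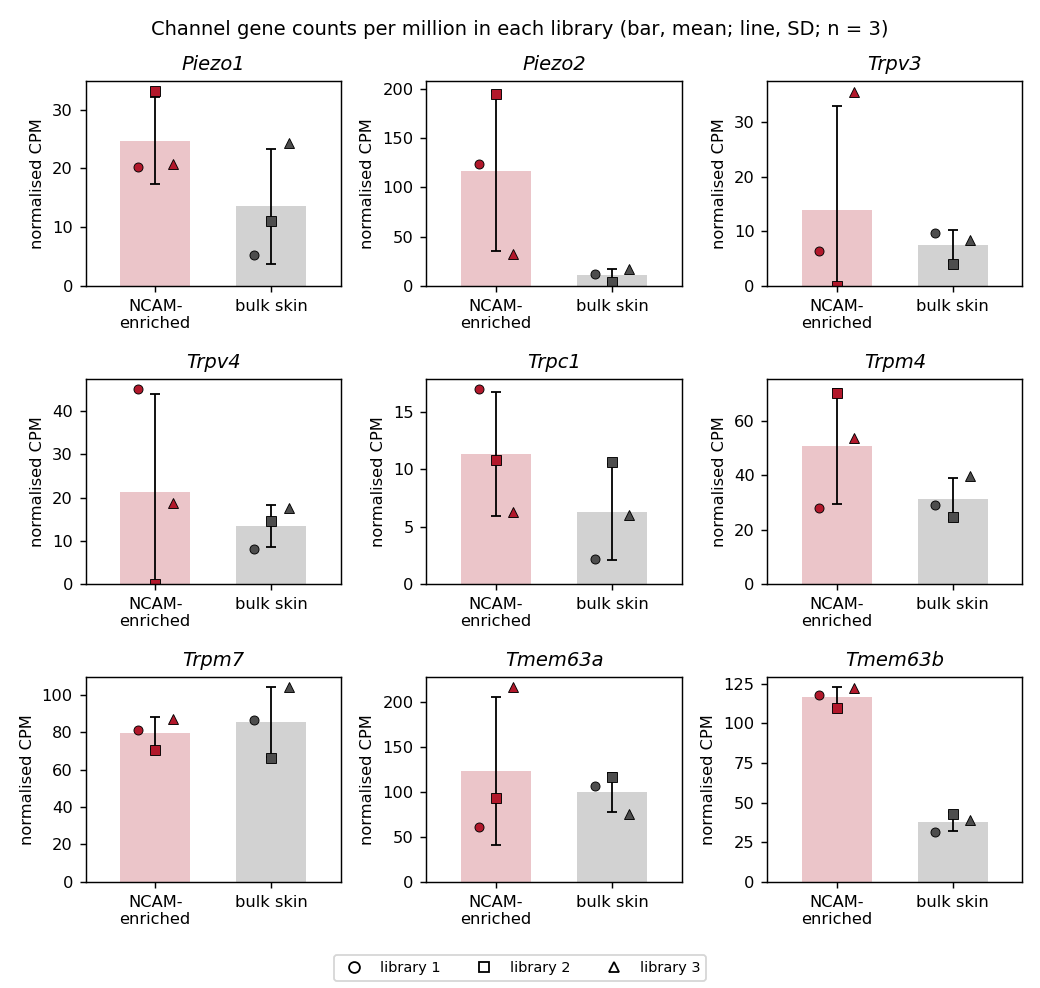
Normalised CPM (vertical axes, from 0, scaled separately) of the 9 channel genes in the 3 NCAM-enriched (red) and 3 bulk skin (grey) libraries. Bars are means, lines are SD (not drawn below 0) and shapes mark libraries 1 to 3. The groups are apart for Piezo2 and Tmem63b, and Trpv3 and Trpv4 both lie at 0 in NCAM-enriched library 2.

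Piezo2 (ENSMUSG00000041482) lies on the minus strand of chromosome 18 between positions 63010213 and 63387183 of GRCm38, and its exons share no base with another gene. It had 123, 195 and 32.9 CPM in NCAM-enriched libraries 1 to 3, from 232, 252 and 116 counts. In bulk skin it had 11.8, 4.1 and 17.3 CPM, from 38, 19 and 63 counts. All 3 NCAM-enriched libraries were above all 3 bulk skin libraries, but library 3 was much nearer to bulk skin than the other two, and the highest value of the group was 5.92 times the lowest. The means were 117 ± 81.1 CPM (SD, n = 3) and 11.1 ± 6.61 CPM. The log2 fold change was 3.40 ± 0.80 (SE), a 10.5-fold difference with a 95% interval from 3.01 to 36.9-fold (edgeR, adjusted p = 0.0608). Piezo2 ranked 475th by p among all genes tested.

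NCAM-enriched library 3, the lowest for Piezo2, was also the lowest for the Merkel marker sum. Without this library Piezo2 passed, with a log2 fold change of 3.78 and an adjusted p of 0.0241 by edgeR. In that fit 1099 of 14962 genes were called higher, against 137 of 13157 with all libraries. Without NCAM-enriched library 2, the highest for Piezo2, the log2 fold change was 2.80 (edgeR, adjusted p = 0.0581). Without NCAM-enriched library 1 the edgeR adjusted p was 0.105. Without bulk skin library 1, 2 or 3 it was 0.285, 0.237 and 0.217. Set against the Merkel marker sum of its own library, Piezo2 came to 7.77%, 12.3% and 7.07% in the NCAM-enriched libraries and to 6.51%, 2.74% and 13.8% in bulk skin. These percentages overlapped between the groups. In such sorted pools, a larger number of cells of a type and more RNA in each cell cannot be told apart. Touch neurons also use Piezo2. Sensory neuron and Schwann cell markers overlapped between groups in sum, at 125 to 216 CPM against 107 to 184 CPM. S100b was at 0 in the NCAM-enriched group and Scn10a at 0 in bulk skin. Melanocyte markers summed to 44.6, 142 and 15.6 CPM against 10.6, 35.0 and 35.4 CPM. The part of these cells in the Piezo2 value was not tested.

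Piezo1 (ENSMUSG00000014444, chromosome 8, 122481698 to 122551329, minus strand) was low in every library. Its levels were 20.2, 33.2 and 20.7 CPM in the NCAM-enriched group and 5.3, 11.0 and 24.4 CPM in bulk skin. Bulk skin library 3 was above 2 of the 3 NCAM-enriched libraries, so the groups overlapped. The log2 fold change was 0.86 ± 0.85 (SE), with a 95% interval from -1.07 to 2.79 (edgeR, adjusted p = 0.650). It was 1.52 without bulk skin library 3 and 0.42 without bulk skin library 1. Of the exonic bases of Piezo1, 24.6% are shared with Ctu2 on the opposite strand. The reads carry no strand, so reads of the shared stretch cannot be told apart, and Ctu2 had 29.8, 0 and 46.3 CPM against 13.0, 34.2 and 19.2 CPM.

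The pair was also compared within each library, where the total depth cancels. The log2 ratio of Piezo2 to Piezo1 per kilobase of exon was 1.81, 1.75 and -0.12 in the NCAM-enriched group and 0.35, -2.19 and -1.28 in bulk skin. Piezo2 was the more abundant per length in NCAM-enriched libraries 1 and 2 and in bulk skin library 1. The length of Piezo1 includes the bases shared with Ctu2, and how reads there were counted is not given. The order is therefore uncertain where the ratio is small, at 0.35 and -0.12. The mean log2 ratios were 1.14 ± 1.10 and -1.04 ± 1.29 (SD), a difference of 2.18 or 4.55-fold. Leaving out NCAM-enriched library 3 made it 2.82, leaving out bulk skin library 1 made it 2.88 and leaving out bulk skin library 2 made it 1.61. The groups overlapped, and the exact two-sided permutation test gave p = 0.2, or 0.3 adjusted over the 3 ratios tested. With 3 libraries against 3, no p below 0.1 is possible.

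**Figure D2:**
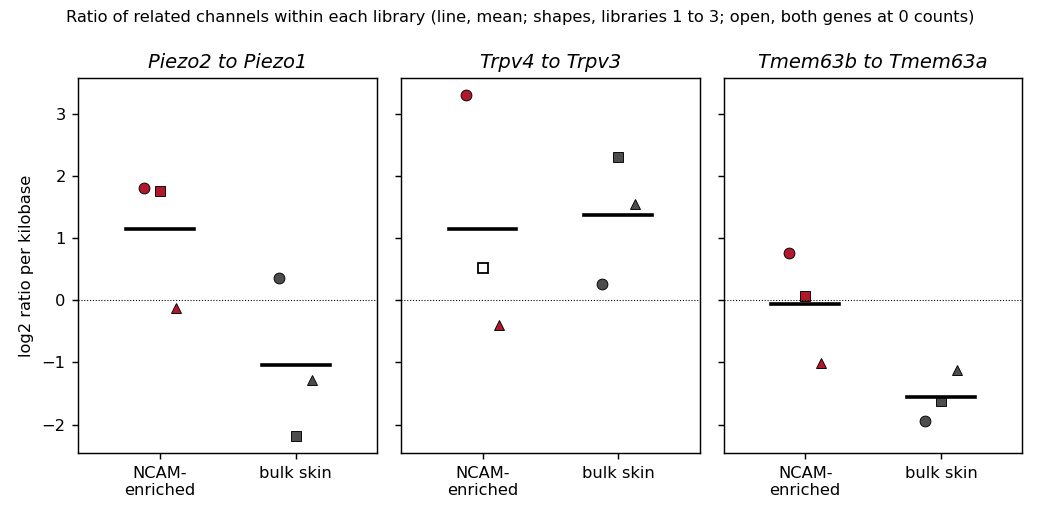
Log2 ratio per kilobase of exon of 3 channel pairs (vertical axis) within each NCAM-enriched (red) and bulk skin (grey) library. Shapes are libraries 1 to 3, lines are group means, and an open square marks a library with no read of either gene. The Tmem63b to Tmem63a ratios of the groups do not overlap, while those of the other pairs do.

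Trpv3 and Trpv4 are the keratinocyte channels for warmth, and TRPV4 also opens on cell swelling. Trpv3 (ENSMUSG00000043029, chromosome 11, 73267388 to 73300363, plus strand) had 6.4, 0 and 35.5 CPM in the NCAM-enriched group and 9.6, 4.1 and 8.5 CPM in bulk skin. NCAM-enriched library 3 alone was high, at 125 counts. Trpv4 (ENSMUSG00000014158, chromosome 5, 114622152 to 114658421, minus strand) had 45.2, 0 and 18.7 CPM and 8.1, 14.5 and 17.5 CPM. Its highest NCAM-enriched library was library 1, not library 3.

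Both genes had no read in NCAM-enriched library 2. A count of 0 there allows up to 2.32 CPM (3 reads, counting error only), which is below every bulk skin value of either gene. Spread between libraries is not covered by this limit. Ctu2 was also at 0 in NCAM-enriched library 2, with 29.8 and 46.3 CPM in libraries 1 and 3 of that group. Pacsin3, a TRPV4 partner gene described below, had 97.4 CPM in NCAM-enriched library 2. The log2 fold changes were 0.93 ± 1.45 for Trpv3, with a 95% interval from -2.36 to 4.22, and 0.68 ± 1.32 for Trpv4, with one from -2.32 to 3.67 (edgeR, adjusted p = 0.796 and 0.846). These intervals are the widest of the 9 genes. The direction rested on single libraries. Without NCAM-enriched library 3 the log2 fold change of Trpv3 was -1.20, and without NCAM-enriched library 1 that of Trpv4 was -0.47. The log2 ratio of Trpv4 to Trpv3 per kilobase was 3.29 and -0.40 in NCAM-enriched libraries 1 and 3 and 0.27, 2.31 and 1.55 in bulk skin. With both genes at 0, the value of 0.52 in NCAM-enriched library 2 reflects their lengths alone. The mean ratios differed by -0.24 (exact two-sided permutation p = 0.9, also after adjustment), and bulk skin and NCAM-enriched ratios overlapped. Both the difference and the test include NCAM-enriched library 2, and without it the difference was 0.07.

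The sequences before the 2 TRPV starts are shown because these related genes, both without a read in the same library, have starts of different base makeup. RefSeq sequence of GRCm38.p6 is printed from 5′ to 3′ on the gene's strand, with each CpG in capitals. The Trpv3 stretch, chr11:73267270-73267387, has 118 bases and 0 CpG. The Trpv4 stretch, chr5:114658422-114658671, has 250 bases and 22 CpG, or 8.80 CpG per 100 bases. Both end at the outermost GENCODE start of the gene. For Trpv3 the RefSeq start lies further into the gene, so that less of its RefSeq window is shown, and the counts in windows of equal length follow.
Trpv3: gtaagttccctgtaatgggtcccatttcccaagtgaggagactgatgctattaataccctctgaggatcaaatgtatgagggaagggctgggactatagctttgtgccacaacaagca
Trpv4: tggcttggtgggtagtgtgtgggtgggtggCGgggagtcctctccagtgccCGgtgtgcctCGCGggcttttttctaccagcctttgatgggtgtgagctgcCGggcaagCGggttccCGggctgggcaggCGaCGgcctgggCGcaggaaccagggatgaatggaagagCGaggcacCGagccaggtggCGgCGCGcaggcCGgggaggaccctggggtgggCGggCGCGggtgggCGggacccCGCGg

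RefSeq promoter windows of 300 bases (250 before and 50 after a start) were used for 7 of the 9 genes. The window of Trpv3 held 4 CpG and that of Trpv4 held 30, and for Trpv3 31.4% of all 32851 windows held fewer. The windows other than that of Trpv3 held 22 (Trpc1) to 35 (Trpm7) CpG, against a median of 7 over all windows, and their GC content ran from 63.0% to 76.0% against a median of 52.7%. This describes the letters in the windows and no use of them.

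Of the other TRP genes, Trpm7 had the steadiest level. Trpm7 (ENSMUSG00000027365, chromosome 2, 126791565 to 126876230, minus strand), a channel fused to a kinase that carries magnesium and calcium, had 81.3, 70.3 and 86.8 CPM in the NCAM-enriched group and 86.3, 66.4 and 103.9 CPM in bulk skin. The NCAM-enriched values all lay within the range of bulk skin, and the log2 fold change was -0.10 ± 0.39 with a 95% interval from -0.98 to 0.77 (edgeR, adjusted p = 0.924).

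Trpm4 (ENSMUSG00000038260, chromosome 7, 45302632 to 45333780, minus strand), a calcium-activated channel for monovalent cations, had 28.2, 70.3 and 53.6 CPM against 29.2, 24.6 and 39.8 CPM. NCAM-enriched libraries 2 and 3 were above all of bulk skin and library 1 was within it. The log2 fold change was 0.70 ± 0.57, with a 95% interval from -0.59 to 1.99 (edgeR, adjusted p = 0.575). Trpc1 (ENSMUSG00000032839, chromosome 9, 95705082 to 95750375, minus strand), a subunit of store-operated and stretch-linked cation channels, had 17.0, 10.8 and 6.2 CPM against 2.2, 10.6 and 6.0 CPM. It was the least abundant of the 9 per length in the NCAM-enriched group. Its groups overlapped, at a log2 fold change of 0.85 ± 1.06 with a 95% interval from -1.56 to 3.25 (edgeR, adjusted p = 0.736).

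The TMEM63 genes differed in how evenly the NCAM-enriched libraries held them, with a coefficient of variation of 5.48% for Tmem63b, the lowest of the 9, and 66.5% for Tmem63a. Tmem63b (ENSMUSG00000036026, chromosome 17, 45660171 to 45686905, minus strand) had 118, 110 and 122 CPM there, from 222, 142 and 431 counts, and 31.4, 43.0 and 39.2 CPM in bulk skin, from 101, 199 and 143 counts. The 3 NCAM-enriched libraries lay within 1.11 times of each other, and all were above the 3 bulk skin libraries. The means were 117 ± 6.39 CPM (SD, n = 3) and 37.9 ± 5.94 CPM. The log2 fold change was 1.62 ± 0.39 (SE), or 3.08-fold with a 95% interval from 1.67 to 5.69-fold (edgeR, adjusted p = 0.0653). Limma-voom gave an adjusted p of 0.0289, and edgeR without NCAM-enriched library 2 gave 0.0296. In that edgeR fit 444 of 14384 genes were called higher, against 137 of 13157 with all libraries. Without NCAM-enriched library 1 or 3 the edgeR adjusted p was 0.116 and 0.0592. Without bulk skin library 1, 2 or 3 it was 0.285, 0.260 and 0.266. Tmem63b was called in 4 of 18 alternatives.

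Set against the Merkel marker sum, Tmem63b came to 7.43%, 6.96% and 26.3% in the NCAM-enriched libraries and to 17.3%, 28.7% and 31.2% in bulk skin. NCAM-enriched library 3 had the lowest Merkel marker sum of its group and the highest Tmem63b. The summed suprabasal markers and the summed hair follicle and sebaceous markers, given above, were also higher in all 3 NCAM-enriched libraries than in bulk skin. The hair follicle and sebaceous sum, like Tmem63b, Tmem63a and Trpv3, was highest in NCAM-enriched library 3, though the NCAM-enriched values of Tmem63b lay within 1.11 times of each other. The basal keratinocyte marker sum was highest there as well. It was 10415, 8850 and 32278 CPM in the NCAM-enriched libraries and 17290, 15274 and 13252 CPM in bulk skin, so that the groups overlapped. The part of these cells in the channel values was not tested.

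Of the exonic bases of Tmem63b, 7.73% are shared with Mrpl14 and Gm16172 on the other strand. Mrpl14, a mitochondrial ribosomal protein gene on the opposite strand whose annotated start, 45686322, lies inside the span of Tmem63b, had 156, 39.4 and 144 CPM in the NCAM-enriched group and 202, 135 and 128 CPM in bulk skin. Mrpl14 differed by -0.45 ± 0.52 on the log2 scale (edgeR, adjusted p = 0.709), and Gm16172 had no read in any library. The bases shown lie between the first exon of 1 Tmem63b transcript, Tmem63b-201, which starts at 45686259, and that of Mrpl14. Another annotated transcript of Tmem63b starts at 45686905, within Mrpl14, so the spacing holds for this transcript alone. The stretch is the 62 bases chr17:45686260-45686321 of GRCm38.p6 in RefSeq, written on the strand of Tmem63b with their 6 CpG in capitals.
Tmem63b: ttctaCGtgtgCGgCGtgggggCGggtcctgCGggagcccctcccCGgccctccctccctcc

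Tmem63a (ENSMUSG00000026519, chromosome 1, 180942344 to 180975112, plus strand) had 61.1, 92.7 and 216.5 CPM in the NCAM-enriched group and 106.2, 116.5 and 75.4 CPM in bulk skin. NCAM-enriched library 3 was the highest of all 6 and library 1 the lowest, so the groups overlapped. The log2 fold change was 0.32 ± 0.51, with a 95% interval from -0.84 to 1.48 (edgeR, adjusted p = 0.804), and it was -0.44 without NCAM-enriched library 3. The antisense model 2210411M09Rik, which shares 3.50% of the exonic bases of Tmem63a, had reads in NCAM-enriched library 1 alone, 12 in all.

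Within libraries, the log2 ratio of Tmem63b to Tmem63a per kilobase was 0.76, 0.06 and -1.01 in the NCAM-enriched group and -1.94, -1.62 and -1.12 in bulk skin. The groups did not overlap, though NCAM-enriched library 3 lay close to bulk skin library 3. Tmem63b was the more abundant of the pair per length in NCAM-enriched libraries 1 and 2, and Tmem63a was in all 3 bulk skin libraries. The mean log2 ratios were -0.06 ± 0.89 and -1.56 ± 0.41 (SD), a difference of 1.50 or 2.83-fold. The exact two-sided permutation test gave p = 0.1, the smallest it can give here, and 0.3 after adjustment over the 3 ratios.

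**Figure D3:**
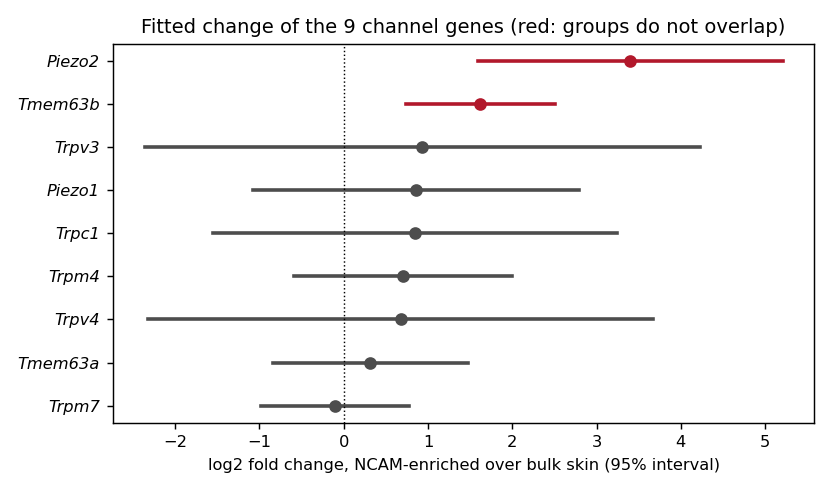
Fitted log2 fold change of each channel gene, NCAM-enriched over bulk skin (horizontal axis), with its 95% interval from edgeR. The intervals of Piezo2 and Tmem63b lie above 0 and those of the other 7 genes cross it, widest for Trpv3 and Trpv4.

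Compared per kilobase of exon, which allows levels of different genes to be set side by side, the TMEM63 pair led in the NCAM-enriched group. The order there was Tmem63a at 27.5 ± 18.3 CPM per kilobase (SD, n = 3), Tmem63b at 22.9 ± 1.25, Trpm7 at 7.02 ± 0.743, Piezo2 at 6.82 ± 4.72, Trpv4 at 5.23 ± 5.57, Trpm4 at 4.68 ± 1.96, Piezo1 at 2.49 ± 0.743, Trpv3 at 2.39 ± 3.24 and Trpc1 at 1.41 ± 0.673. Only Tmem63b and Trpm7 were neighbours in this order whose libraries did not overlap. In bulk skin the order was Tmem63a at 22.1 ± 4.76 CPM per kilobase, Trpm7 at 7.56 ± 1.66, Tmem63b at 7.43 ± 1.17, Trpv4 at 3.28 ± 1.19, Trpm4 at 2.88 ± 0.716, Piezo1 at 1.37 ± 0.988, Trpv3 at 1.27 ± 0.50, Trpc1 at 0.780 ± 0.525 and Piezo2 at 0.644 ± 0.385. Here the libraries of Tmem63a lay apart from those of Trpm7, and those of Tmem63b from those of Trpv4, while all other neighbours overlapped. Piezo2 thus came just after Trpm7 in the NCAM-enriched group and last in bulk skin, although its level overlapped those of its neighbours in both.

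Summed over the 9 genes, the level was 70.0, 70.9 and 100.3 CPM per kilobase in the NCAM-enriched group and 45.2, 49.4 and 47.3 in bulk skin. Of this sum, Piezo2 took 10.3%, 16.0% and 1.91% in the NCAM-enriched libraries and 1.52%, 0.484% and 2.13% in bulk skin. NCAM-enriched library 3 therefore lay within the bulk skin range for the Piezo2 share. Tmem63b took 33.0%, 30.4% and 23.9% against 13.6%, 17.1% and 16.3%, with no overlap. The share of Tmem63a was 19.4%, 29.1% and 48.1% against 52.3%, 52.5% and 35.5%, and that of Trpm7 was 10.3%, 8.76% and 7.65% against 16.9%, 11.9% and 19.4%. These shares add up to a fixed total, so that a larger share of one gene lowers the others.

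**Figure D4:**
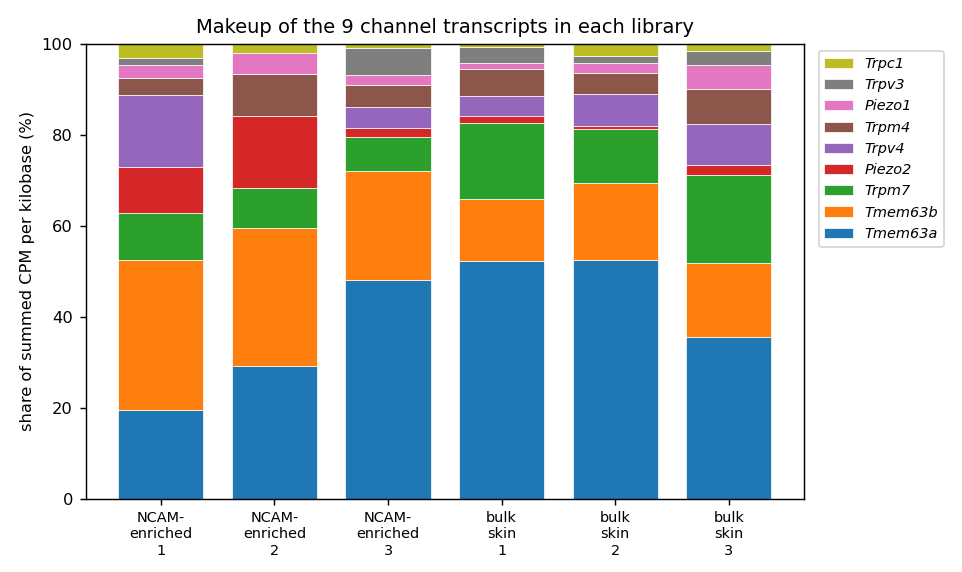
Share of each channel gene (percent, vertical axis) in the summed CPM per kilobase of all 9, for each of the 6 libraries. Tmem63b takes 23.9% to 33.0% in the NCAM-enriched libraries and 13.6% to 17.1% in bulk skin, and the Piezo2 band is wide in NCAM-enriched libraries 1 and 2 alone.

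The rest of the channel families gave context for the 9. Of 23 other TRP genes, 8 were tested and none was called in either direction by edgeR, with 3 log2 fold changes above 0 and 5 below and a median of -0.50. Trpa1, Trpc2, Trpv5 and Pkd2l1 had no read in any library. DESeq2 on every gene with a count called 1 of the 23 higher (Trpm1; background 7.68%) and 3 lower (Trpm6, Trpv2 and Mcoln2; background 6.67%). Trpm6, the magnesium channel closest to Trpm7, had 0 reads in all 3 NCAM-enriched libraries and 54, 82 and 74 in bulk skin. By counting error alone, taking 3 reads over the NCAM-enriched group as the limit, Trpm6 was at least 40.8-fold lower. Without NCAM-enriched library 3 this limit was at least 19.3-fold. Spread between libraries is not covered by these limits, and edgeR did not call Trpm6 (adjusted p = 0.0513). Trpv2, a relative of Trpv3 and Trpv4 known from macrophages and neurons, had 4.8, 0 and 0 CPM against 73.9, 65.9 and 64.2 CPM, with a log2 fold change of -5.41 ± 1.34 (edgeR, adjusted p = 0.0682). Its group totals were 9 and 777 reads, and without NCAM-enriched library 1 its total there was 0. Langerhans and myeloid markers summed to 638, 188 and 743 CPM in the NCAM-enriched group and to 18821, 12862 and 11518 CPM in bulk skin, moving in the same direction as Trpm6 and Trpv2. T and NK cell markers summed to 42.0, 169 and 84.6 CPM against 3634, 3732 and 3829 CPM, with Cd3d, Cd2 and Gzmb at 0 in the NCAM-enriched group. The part of immune cells in these values was not tested.

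Of 28 other mechanically gated or volume-gated channel genes, 15 were tested and none was called by edgeR, with 8 log2 fold changes above 0 and 7 below and a median of 0.30. DESeq2 on every gene with a count called 2 of the 28 higher, Scnn1a and Lrrc8e (background 7.68%), and 1 lower, Lrrc8c (background 6.67%). Scnn1a, the alpha subunit of the epithelial sodium channel, had 63.2, 60.3 and 103.9 CPM in the NCAM-enriched group and 14.0, 11.2 and 18.6 CPM in bulk skin. Its groups did not overlap, and the log2 fold change was 2.37 ± 0.54 (edgeR, adjusted p = 0.0573). Tmem120a, the highest of this list per kilobase over both groups together although Scnn1a was higher in the NCAM-enriched group, encodes a membrane protein once proposed as a pain channel and had 11.7, 0.8 and 46.3 CPM against 41.3, 36.7 and 24.4 CPM (edgeR, adjusted p = 0.766). Its log2 fold change was -0.78, and -2.46 without NCAM-enriched library 3.

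Of 19 Piezo-associated and touch-complex genes, 15 were tested and none was called by edgeR, with 9 log2 fold changes above 0, 6 below and a median of 0.27. DESeq2 on every gene with a count called 1 of the 19 higher (background 7.68%) and 1, Anxa6, lower (background 6.67%). Anxa6, a calcium-dependent membrane-binding annexin, had 189, 111 and 79.2 CPM against 351, 324 and 345 CPM, with a log2 fold change of -1.43 ± 0.40 (edgeR, adjusted p = 0.0907).

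Of 12 partner genes of TRPV3 and TRPV4, 11 were in the table and 10 were tested, none was called by edgeR, and 8 log2 fold changes were above 0, with a median of 1.06. DESeq2 on every gene with a count called 1 of them, Pacsin3, higher (background 7.68%). Pacsin3, a membrane-bending protein that binds TRPV4, had 88.2, 97.4 and 81.7 CPM in the NCAM-enriched group and 6.5, 22.5 and 14.8 CPM in bulk skin. The NCAM-enriched libraries were all far above bulk skin, including library 2, in which Trpv4 itself had no read, and the log2 fold change was 2.60 ± 0.58 (edgeR, adjusted p = 0.0537). Orai1, the pore of store-operated calcium entry, was the highest of this list per kilobase over both groups together, although Stim1 was above it in the NCAM-enriched group, and had 158, 19.3 and 144 CPM against 53.7, 82.8 and 62.5 CPM (edgeR, adjusted p = 0.645).

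**Figure D5:**
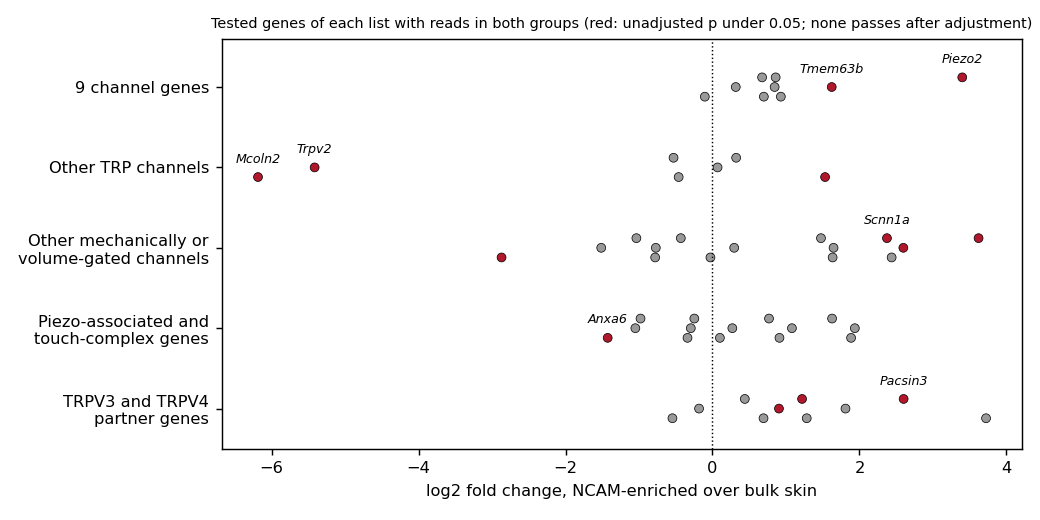
Fitted log2 fold change, NCAM-enriched over bulk skin (horizontal axis), of each tested gene of the 9 channel genes and of 4 lists of related genes (rows). Points are genes, red at an unadjusted p under 0.05 in edgeR, and tested genes with no read in 1 group are not drawn, since their fitted values depend on the fit. The medians over all tested genes are 0.85 for the 9 and -0.50, 0.30, 0.27 and 1.06 for the lists.

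Genes with the most similar pattern were sought among 10986 genes by the root mean square difference of log2 CPM, centred on each gene, over the 6 libraries. For Piezo2 these were Ric3, a chaperone of nicotinic acetylcholine receptors, at 0.240, Syt13, a synaptotagmin, at 0.327, the mitochondrial rRNA gene mt-Rnr1 at 0.368, Prrxl1, a homeodomain factor of sensory neurons, at 0.408 and Dsg1b, a desmosomal cadherin, at 0.414, against a median of 2.16 over all candidates. Mitochondrial genes took 0.896%, 1.97% and 0.313% of the reads in the NCAM-enriched libraries and 0.139% to 0.263% in bulk skin. For Tmem63b the nearest were Ptms at 0.0857 and Iffo2 at 0.104, for Piezo1 Micall1 at 0.0961, and for Trpm7 Mcm3ap at 0.0659 and Phactr4 at 0.101. Gal3st1 (0.226) and Angel1 (0.313) were nearest to Trpv3, and Fam241b (0.231) and Tfpt (0.291) to Trpv4. For Trpc1 these were Gk5 (0.172) and Pcnt (0.231), for Trpm4 Synm (0.139) and Mcm9 (0.142), and for Tmem63a Zfp865 (0.189) and Zrsr2 (0.199). Likeness over 6 libraries is a description only.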

How the data were processed

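Reads of 50 bases from 6 Smart-seq2 libraries were, according to the methods, clipped, aligned to GRCm38 with STAR and counted with featureCounts. The values deposited by the authors are raw read counts per gene, not normalised. Which annotation and strand setting featureCounts used is not given in the sources, and Smart-seq2 reads carry no strand. Groups came from the sample titles. No source states that libraries came from separate animals, so p-values measure only the spread between libraries. Positions and exonic lengths came from GENCODE M21.

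Counts were tested by the quasi-likelihood F-test of edgeR 4.0.16 (R 4.3.3) after filterByExpr and TMM scaling. Adjustment was by Benjamini-Hochberg over 13157 genes, and genes at or below 0.05 were called. The SE is the absolute log2 fold change over the square root of F. The biological coefficient of variation was 0.744. Ratios used a pseudocount of 0.5 counts. Alternatives were DESeq2 1.42.0, limma-voom (limma 3.58.1), other scalings and filters, and leaving out each library. DESeq2 on the genes tested by edgeR was added after the data had been seen. Intervals and limits from 3 counts cover counting error only. Replicate numbers were not treated as pairs.

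The channel genes and lists were chosen with earlier results of these data known. Named were all 9 channel genes, any called gene of each list, its smallest p and its highest level per kilobase, the 5 genes nearest to Piezo2 and the 2 nearest to each other channel gene (searched among genes that reached a mean of 10 CPM in either group). Overlapping genes, and genes called by DESeq2, were named after their values had been seen. Some genes that the rule selects are not reported here.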

Additional observations from a re-analysis of the deposited data

How the results depend on the processing

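Among the 9 channel genes, 0 were called higher by edgeR, against 2 with DESeq2 on all genes with a count, 2 with DESeq2 on the genes edgeR tested, 1 with limma-voom, 1 with no count filter (Piezo2) and 0 to 1 on leaving out each library. With no filter, 769 of 27884 genes were called higher. Piezo2 was called without NCAM-enriched library 3, where 1099 of 14962 genes were called higher. Tmem63b was called without NCAM-enriched library 2, where 444 of 14384 genes were. None was called lower under any alternative. Over 18 alternatives the log2 fold change of Piezo2 was 2.80 to 3.79 (adjusted p from 0.000202 to 0.285) and that of Tmem63b 1.45 to 1.67 (0.00150 to 0.285), each called in 4. Libraries of the same number did not deviate together (correlations of deviations 0.0226, 0.000250 and -0.00436). This cannot show whether they shared an animal or a sort. With a replicate block in edgeR, Piezo2 was at 3.28 (adjusted p = 0.177) and Tmem63b at 1.63 (0.184). The sign changed for Trpv3 (limma-voom -0.39, block -0.54, without NCAM-enriched library 3 -1.20), Trpv4 (limma-voom -0.72, block -0.30, without NCAM-enriched library 1 -0.47), Trpm7 (0.0067 without bulk skin library 3) and Tmem63a (-0.44 without NCAM-enriched library 3). On leaving out each library, these ranged from -1.20 to 1.50 for Trpv3, -0.47 to 1.23 for Trpv4, -0.31 to 0.0067 for Trpm7 and -0.44 to 0.64 for Tmem63a. The difference in the Trpv4 to Trpv3 ratio ranged from -1.32 to 0.53 and was 0.07, 0.53 and 0.23 without NCAM-enriched library 2, NCAM-enriched library 3 and bulk skin library 2. The cause of these changes was not tested.

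Of all genes, 137 were called higher and 204 lower, against 661 and 928 (DESeq2 on the genes edgeR tested), 1259 and 1094 (DESeq2 on all), 351 and 849 (limma-voom), 769 and 741 (no filter), 50 and 92 (block), and 0 to 1099 and 13 to 733 (leaving out a library). The 0 arose with edgeR without bulk skin library 1 or 2, where 2115 and 2237 genes had an unadjusted p under 0.05. Of the genes of the 4 related lists, 0 were called higher or lower by edgeR, against 4 and 5, 5 and 5, 3 and 4 and 4 and 3 in the first 4 of these settings, 2 and 1 with at least 10 CPM in 3 libraries, 1 and 1 with total counts only, 1 higher with RLE factors, 1 higher without the 20 most abundant genes, and 0 to 4 and 0 to 2 on leaving out a library. Over all genes tested, the median log2 fold change moved from -0.07 to 0.17 with DESeq2 on all genes, -0.37 with limma-voom and -0.36 with the block. By counting error alone, a 0 in NCAM-enriched library 2 limits a level to at most 2.32 CPM, and spread between libraries is not covered.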

Other observations

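Some sparse channel genes, picked out after their values had been seen, had reads in NCAM-enriched libraries 1 and 2 and none in library 3. Trpm1, a channel of pigment and retinal cells, had 22, 17 and 0 reads in NCAM-enriched libraries 1 to 3 and none in bulk skin. Tmc1, the mechanotransduction channel of hair cells, had 2, 15 and 0 reads and none in bulk skin. Tmc3 had 58, 3 and 0 reads against 0, 1 and 15, and Trpm2, a channel gated by ADP-ribose, had 112, 5 and 0 against 8, 0 and 9. None of these 4 had enough reads for edgeR, and DESeq2 on every gene with a count called Trpm1 alone (adjusted p = 0.0307). Other sparse genes of the same lists did not follow this pattern. In NCAM-enriched libraries 1 to 3, Trpc5 had 0, 0 and 4 reads and Tmc7 had 15, 0 and 44. Melanocyte markers, given in the account of Piezo2, were highest in NCAM-enriched library 2. In CPM, Trpm1 had 11.7, 13.1 and 0 in NCAM-enriched libraries 1 to 3. The part of melanocytes in the Trpm1 reads was not tested.

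The volume-regulated anion channel subunits Lrrc8e and Lrrc8c lay in opposite directions. Lrrc8e had 25, 73 and 250 reads against 22, 55 and 16, at a log2 fold change of 2.60 ± 0.86 (edgeR, adjusted p = 0.138). Lrrc8c had 14, 0 and 21 reads against 80, 147 and 163, at -2.87 ± 1.15 (edgeR, adjusted p = 0.218). In CPM the groups overlapped for neither gene, but Lrrc8e had 13.3 CPM in NCAM-enriched library 1 and 11.9 CPM in bulk skin library 2. Neither gene passed in edgeR, while DESeq2 on every gene with a count called both (adjusted p = 0.0191 and 0.0280). Among the TRP genes of lysosomes, Mcoln1 averaged 80.8 ± 26.3 CPM after NCAM sorting and 27.9 ± 10.9 CPM in bulk skin (SD, n = 3), with no overlap (edgeR, adjusted p = 0.151), while Mcoln2 had 1 read in all against 153, a ratio of 89.2 with a 95% counting interval from 15.8 to 3546 (edgeR, adjusted p = 0.0741). Without NCAM-enriched library 3, which held the read, Mcoln2 was at least 14.1-fold lower by the limit of 3 reads, counting error only. Immune markers, given beside Trpv2, were lower in the same libraries as Mcoln2, and their part was not tested.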
